A study of Homo sapiens with 36 samples.

Results

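The 10 genes described here encode enzymes that build pyrimidine and purine nucleotides from small precursors. The pyrimidine enzymes are CAD, DHODH, UMPS, CTPS1 and CTPS2, and the purine enzymes are PPAT, GART, ATIC, IMPDH1 and IMPDH2. The set was chosen on earlier results of these data, for the transient loss of CTPS1 in cells given a compound labelled Ota, so the values from Ota cultures are a description: no p-value is printed for them, and nothing is read from how many members passed a threshold. The 10 genes are among 19775 that the arrays represent, each by the probe set with the highest mean over all 36 arrays. In all, 27 probe sets carry the symbol of a member, and 6 members have several.

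The cells were HK-2, a human line immortalized from the proximal tubule of the kidney and grown in a defined medium with growth factor and hormone supplements. Cultures received the compound labelled Aa at a high or a low dose, or its vehicle, for 24 h or 48 h, and other cultures received Ota at a high or a low dose, or its vehicle, for 24 h or 72 h. Each of the 12 groups held 3 arrays of biological replicates, and both doses of a compound and time share 1 control group. The labels spell out neither the compound names nor the concentrations, so doses are not matched between Aa and Ota, and the late times differ. What separates the biological replicates is not stated, so p-values measure the spread between these cultures, which may be technical.

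Pyrimidine synthesis starts with CAD, a single protein that carries the opening reactions up to dihydroorotate. DHODH, in the inner mitochondrial membrane, oxidises dihydroorotate to orotate, UMPS turns orotate into UMP, and the CTP synthases CTPS1 and CTPS2 convert UTP to CTP. Purine synthesis is committed by PPAT, continues through several reactions carried by GART, and reaches IMP with ATIC, after which IMPDH1 and IMPDH2 direct IMP towards guanine nucleotides. Dividing cells draw on these routes for RNA and DNA precursors, while resting cells rely more on salvage of nucleosides and bases.

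Levels are log2 values per probe set, on which 1 unit is a 2-fold difference, and they are compared only within a probe set. Below about 4 the scale does not rank samples reliably, so such values are treated as background. A gene counted as tested when it exceeded 4 on at least 3 arrays of a compound, which held for all 10 members with both compounds, DHODH being near that level throughout. A gene counted as changed at an adjusted p under 0.05 in limma, over 10972 genes with Aa and 11029 with Ota.

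The cell line lacked much of its tissue's signature. Of 11 proximal tubule markers, 8 stayed at or under 4 on all arrays, among them LRP2, CUBN, AQP1 and ANPEP, while 2 exceeded 4 on all, SLC4A4 among them. All 6 epithelial markers exceeded 4 on all arrays, and EPCAM, KRT8, KRT18 and KRT19 were over 8 in every group. Of 5 fibroblast markers 3 exceeded 4 on all arrays, with group means of 8.93 to 11.41 for DCN, while COL1A2 and PDGFRA stayed at or under 4. All 4 endothelial markers were at or under 4 on all arrays. The arrays of the high Ota dose stood apart in overall level. Their median over the tested genes was 7.64 ± 0.16 at 24 h, against 8.28 ± 0.06 in controls, and 7.95 ± 0.05 at 72 h, against 8.28 ± 0.02 (SD, n = 3 each). They also had fewer genes over 4, on average 10135 against 10453 at 24 h. At 72 h the difference between the 3' and 5' control probe sets of ACTB, a sign of RNA integrity, was 1.88 ± 0.37 with the high dose and 1.29 ± 0.15 in controls (n = 3 each). The same difference for GAPDH was near 0 in both, at -0.01 ± 0.07 with the high dose and -0.08 ± 0.03 in controls. A setting with every array shifted to the same median was therefore computed, and its values are given where they bear on a member. In bulk RNA, fewer cells of a kind and less RNA per cell cannot be told apart.

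CTPS1 was close to the background of the arrays after 24 h of the high Ota dose and overlapped its controls after 72 h. At 24 h its levels were 3.11, 3.17 and 5.89 with the high dose, 9.47, 9.10 and 9.70 with the low dose, and 10.36, 10.50 and 10.35 in controls. The 3 groups did not overlap, and 2 of the 3 high-dose arrays lay under the level of 4. The difference, high dose minus control, was -6.35 ± 0.49 (log2, SE), or -5.78 with values under 4 set to 4. It was -7.27 without replicate 3 of the high dose, the brightest of the 3 arrays, and -5.71 with the arrays shifted to a common median. With the low dose the difference was -0.98 ± 0.49.

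At 72 h CTPS1 measured 8.91, 8.67 and 9.23 with the high dose, 9.90, 9.77 and 9.68 with the low dose, and 9.10, 9.21 and 9.01 in controls. High dose and control overlapped, with a difference of -0.17 ± 0.49 that became 0.16 with shifted arrays, and the low dose lay above both. The controls themselves were lower at 72 h than at 24 h, by 1.29 ± 0.49. The high dose alone averaged 8.94 ± 0.28 at 72 h and 4.05 ± 1.59 at 24 h (SD, n = 3). The effect at 72 h minus that at 24 h was 6.18 ± 0.70.

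The 250 bases before the transcription start of CTPS1 and of UMPS, the member that followed CTPS1 most closely, are shown because both genes were low with high Ota at 24 h, with those of ATIC, which holds both motifs searched. They are the first windows listed by RefSeq (GRCh38.p14), 5' to 3' on the gene's strand. Capitals mark CACGTG, the E-box bound by MYC and related factors, and GGGCGG or its reverse complement CCGCCC, the GC box bound by SP1. CTPS1 lies on the plus strand at chr1:40979446-40979695, UMPS on the plus strand at chr3:124730202-124730451 and ATIC on the plus strand at chr2:215311809-215312058.
CTPS1: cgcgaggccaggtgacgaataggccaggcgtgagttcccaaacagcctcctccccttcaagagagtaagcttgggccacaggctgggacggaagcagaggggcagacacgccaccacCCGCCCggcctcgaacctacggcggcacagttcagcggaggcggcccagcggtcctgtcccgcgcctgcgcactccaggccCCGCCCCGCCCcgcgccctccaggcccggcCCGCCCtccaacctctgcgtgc
UMPS: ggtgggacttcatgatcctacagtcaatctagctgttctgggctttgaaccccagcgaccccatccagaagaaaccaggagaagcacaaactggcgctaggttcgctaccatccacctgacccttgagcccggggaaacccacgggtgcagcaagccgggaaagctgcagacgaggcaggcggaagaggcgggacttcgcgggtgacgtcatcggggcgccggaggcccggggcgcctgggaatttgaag
ATIC: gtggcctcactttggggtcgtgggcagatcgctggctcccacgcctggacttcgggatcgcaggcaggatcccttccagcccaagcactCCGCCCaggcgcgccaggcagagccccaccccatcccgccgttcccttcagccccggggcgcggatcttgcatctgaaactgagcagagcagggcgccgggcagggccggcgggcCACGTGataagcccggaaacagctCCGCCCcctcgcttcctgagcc

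The CTPS1 window holds 4 GC boxes, 2 of which share bases, and no CACGTG. The UMPS window holds neither motif. Of the 9 members with a window in the table, which lacks only IMPDH2, 3 hold CACGTG in a window: DHODH, PPAT and ATIC. GGGCGG occurs in 8 members, all but UMPS. Over all 35116 windows of this length, 6.34% hold CACGTG and 42.6% hold GGGCGG on either strand, and a member can have several windows. These are matches of letters and not measured binding sites.

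With Aa, CTPS1 fell at both times with the high dose and not to background. At 24 h it was 9.23, 9.38 and 9.45 with the high dose, 9.83, 10.44 and 9.98 with the low dose, and 10.46, 10.62 and 10.61 in controls. The groups did not overlap, and the high dose was 2.31-fold lower than control (log2 -1.21 ± 0.18, adjusted p = 5.7e-05). It was also lower than the low dose, by 0.73 ± 0.18 (adjusted p = 0.00747, and 0.197 in a fit of all 36 arrays). The low dose minus control was -0.48 ± 0.18 (adjusted p = 0.0657). With the replicate number as a block, which the Aa arrays bear out, that adjusted p was 0.0244.

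At 48 h CTPS1 was 9.46, 9.58 and 9.10 with high Aa, 9.61, 10.16 and 9.76 with low Aa, and 10.22, 10.30 and 10.65 in controls. The high dose was 2.01-fold lower than control (-1.01 ± 0.18, adjusted p = 0.00017). The low dose was 1.46-fold lower (-0.55 ± 0.18, adjusted p = 0.0276), a call lost without control replicate 3 (0.114), without low-dose replicate 1 (0.121) or 3 (0.0842), with no filter on dim genes (0.0513) and in a fit of all 36 arrays (0.303). The effect of the high dose at 48 h minus that at 24 h was 0.20 ± 0.26 (adjusted p = 0.615).

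**Figure D1:**
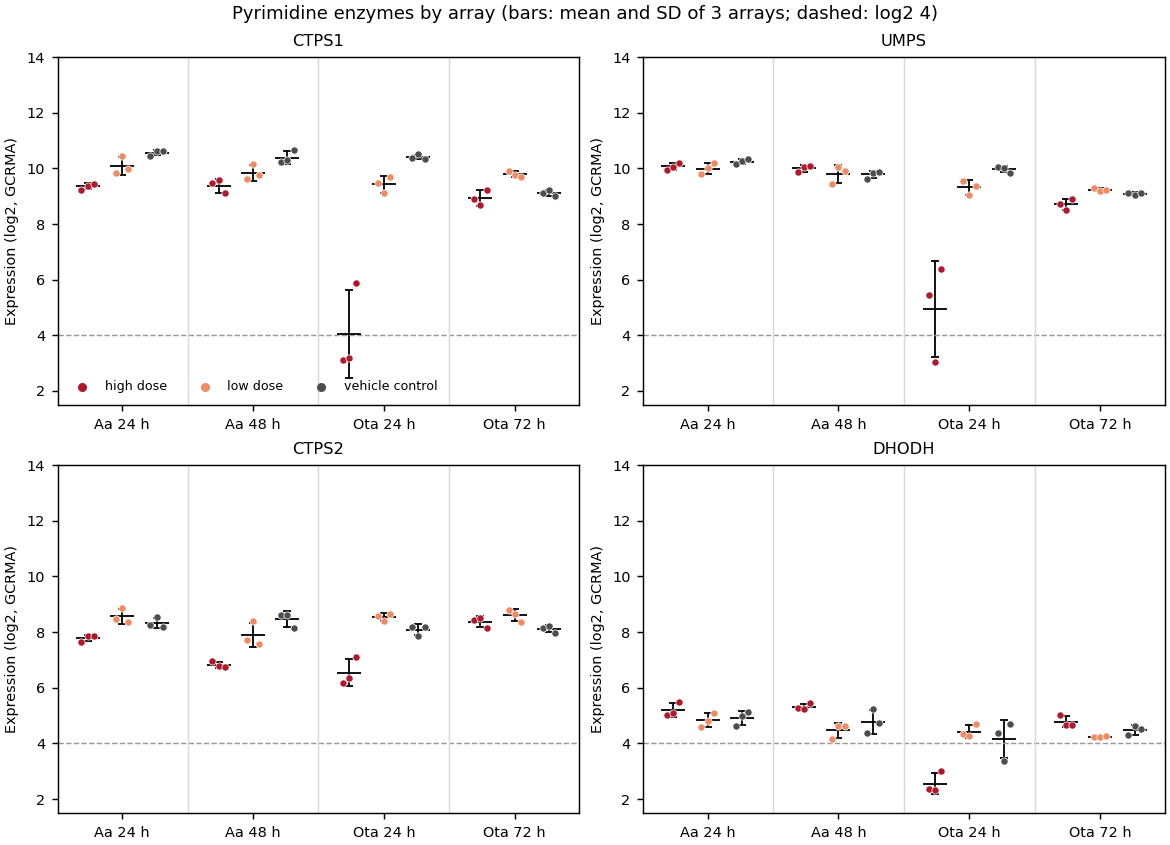
Levels of CTPS1, UMPS, CTPS2 and DHODH on each array (log2 values, y axis) in the 12 groups, set out by compound and time, with high dose, low dose and vehicle control from left to right; points are arrays, bars the mean and SD of 3 arrays, and the dashed line is the level of 4. CTPS1 and UMPS are lowest with high Ota at 24 h, with means of 4.05 and 4.96, and CTPS2 is low there, at 6.54, and with high Aa at 48 h, at 6.82.

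Ordered by group mean over the 12 groups, CTPS1 was lowest with high Ota at 24 h (4.05 ± 1.59), followed by high Ota at 72 h (8.94 ± 0.28), the 72 h controls (9.11 ± 0.10) and high Aa at 24 h (9.35 ± 0.12) and 48 h (9.38 ± 0.25). It was highest in the 24 h Aa controls (10.56 ± 0.09), after the 24 h Ota controls (10.40 ± 0.08) and the 48 h Aa controls (10.39 ± 0.23) (SD, n = 3 each). Between these lay low Ota at 24 h (9.42 ± 0.31) and 72 h (9.78 ± 0.11) and low Aa at 48 h (9.84 ± 0.28) and 24 h (10.08 ± 0.32). The arrays of neighbouring groups in this order overlapped, except that the lowest group lay apart from all others and that high Aa at 24 h lay just above the 72 h controls. Over the 12 group means, the genes most like CTPS1 among 11405 were EHD4 (Pearson r = 0.9903), MRPL27 (0.9894), FEZ2 (0.9849), SNUPN (0.9838) and NFYA (0.9831). These correlations share the 12 groups, of which high Ota at 24 h lies farthest from the rest: EHD4 averaged 4.14 ± 0.78 there, against 8.18 ± 0.12 in controls. Among the members, UMPS ranked 42 by the same measure (0.9665), DHODH 1218 (0.7972) and PPAT 10086 (-0.4914).

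UMPS had a similar course with high Ota, except that it did not overlap its controls at 72 h. Its levels at 24 h were 5.46, 3.04 and 6.38 with the high dose, 9.55, 9.04 and 9.36 with the low dose, and 10.04, 10.01 and 9.84 in controls. The 3 groups were apart, and the difference of the high dose from control was -5.00 ± 0.53, or -4.68 with values under 4 set to 4. A second UMPS probe set, 215165_x_at, gave 5.13, 3.58 and 6.28 with the high dose, against 9.69, 9.78 and 9.66 in controls. At 72 h UMPS was 8.73, 8.49 and 8.89 with the high dose, against 9.11, 9.05 and 9.13 in controls, a difference of -0.39 ± 0.53 without overlap that was -0.06 with shifted arrays. With the low dose at 72 h UMPS differed from control by 0.13 ± 0.53. The 72 h controls were lower than the 24 h controls by 0.87 ± 0.53. As with CTPS1, these SEs are widened by the high dose at 24 h (SD 1.72). At 72 h the SD was 0.20 with the high dose and 0.05 in controls.

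By its main probe set UMPS did not pass the test against control with Aa at either dose or time. The high dose minus control was -0.18 ± 0.15 at 24 h (adjusted p = 0.357) and 0.23 ± 0.15 at 48 h (0.201), and with the block the second of these rose (0.0356). The low dose minus control was -0.25 ± 0.15 at 24 h (adjusted p = 0.254, with the block 0.0403) and 0.02 ± 0.15 at 48 h (0.921). The second set, 215165_x_at, passed as lower with low Aa at 24 h (-0.40 ± 0.14, adjusted p = 0.0448 over 23649 probe sets, with the block 0.00108). Whether UMPS and CTPS1 differ in their response to Aa was not tested.

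CTPS2, the other CTP synthase, fell with high Aa at both times, and further at 48 h than at 24 h. At 48 h it was 6.96, 6.77 and 6.74 with the high dose, 7.71, 8.40 and 7.59 with the low dose, and 8.63, 8.63 and 8.14 in controls. The high dose was 3.13-fold lower than control (-1.64 ± 0.20, adjusted p = 4.2e-06) and 2.11-fold lower than the low dose (-1.08 ± 0.20, adjusted p = 0.00051). The low dose overlapped control and was lower by 0.57 ± 0.20 (adjusted p = 0.0378), a call lost without low-dose replicate 1 (0.134) or 3 (0.169), without control replicate 1 (0.12) or 2 (0.125) and with no filter (0.0728). At 24 h the high dose was 7.66, 7.85 and 7.85, against 8.27, 8.54 and 8.19 in controls, a difference of -0.55 ± 0.20 (adjusted p = 0.0332) that passed in 8 of 14 alternatives. It did not pass without control replicate 1 (0.056) or 2 (0.123), nor without any 1 of the high-dose arrays (0.0531 to 0.102). The effect of the high dose at 48 h minus that at 24 h was -1.10 ± 0.28 (adjusted p = 0.0146), a call lost with second probe sets (-1.10 ± 0.37, adjusted p = 0.0532). By the main probe sets CTPS2 was the 1 member that passed that test, all of them tested, against a background of 13.6% of genes lower and 7.14% higher.

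A second CTPS2 probe set, 219080_s_at, passed as lower with high Aa at both times and with low Aa at 48 h when every probe set was fitted on its own. With the high dose it was 5.78, 4.49 and 5.41 at 48 h, against 7.63, 7.74 and 7.87 in controls (-2.52 ± 0.26, adjusted p = 9.7e-07 over 23649 probe sets). With the low dose at 48 h the difference was -1.24 ± 0.26 (adjusted p = 0.00202), and with the high dose at 24 h -1.42 ± 0.26 (0.00037). With low Aa at 24 h the 2 sets lay on opposite sides of control and neither passed. The main set differed by 0.23 ± 0.20 (adjusted p = 0.465 in this fit) and the second by -0.67 ± 0.26 (0.0754). With Ota the 2 probe sets agreed at the high dose and 24 h and not at the low dose. The main set was 6.18, 6.34 and 7.09 with high Ota at 24 h, against 8.18, 7.85 and 8.20 in controls, a difference of -1.54 ± 0.20 (-0.90 with shifted arrays), and the second set differed by -1.41. With low Ota at 24 h the main set differed by 0.46 ± 0.20 and the second by -0.89, both without overlap with control.

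DHODH was the dimmest member and gave the least firm values. In high Ota at 24 h it was at 2.35, 2.32 and 3.00, all under 4, against 4.39, 3.38 and 4.71 in controls. The control array at 3.38 also lay under 4, and with values under 4 set to 4 the difference was -0.37. A second probe set, 217647_at, did not follow, with a difference of 0.29 in that comparison. With high Aa at 48 h DHODH was 5.27, 5.24 and 5.44, against 4.36, 5.22 and 4.75 in controls (0.54 ± 0.21, adjusted p = 0.0383). That call held in 6 of 13 alternatives and was lost without control replicate 1 (0.201) or 3 (0.0791) and without any 1 of the high-dose arrays (0.0566 to 0.109). The second set was higher too, by 1.01 ± 0.27 (adjusted p = 0.00409). At 24 h DHODH with high Aa minus control was 0.28 ± 0.21 by the main set (adjusted p = 0.301), while the second set rose by 0.92 ± 0.27 (adjusted p = 0.0101).

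CAD moved in opposite directions with the 2 compounds. With high Aa it was 10.90, 10.30 and 10.87 at 24 h, against 10.08, 9.82 and 10.06 in controls, a 1.63-fold rise (0.70 ± 0.19, adjusted p = 0.00527). At 48 h it was 11.10, 10.78 and 11.31 with the high dose, 10.19, 9.84 and 10.19 with the low dose, and 9.96, 9.55 and 9.72 in controls. The high dose was 2.50-fold above control (1.32 ± 0.19, adjusted p = 1.6e-05) and 1.98-fold above the low dose (0.99 ± 0.19, adjusted p = 0.00053). The low dose minus control was 0.04 ± 0.19 at 24 h (adjusted p = 0.91) and 0.33 ± 0.19 at 48 h (0.175, with the block 0.0093). The high-dose effect at 48 h minus that at 24 h was 0.62 ± 0.26 (adjusted p = 0.104, with the block 0.00284).

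With high Ota CAD was below its controls at both times and without overlap. It was 8.47, 9.18 and 7.96 at 24 h, against 10.04, 10.00 and 9.76 in controls (-1.39 ± 0.22, or -0.76 with shifted arrays). At 72 h it was 7.31, 7.05 and 7.61, against 9.59, 9.50 and 9.55 (-2.22 ± 0.22, or -1.90 with shifted arrays). Where CTPS1 and UMPS were near their controls at 72 h, CAD, the entry enzyme of the same route, was not.

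**Figure D2:**
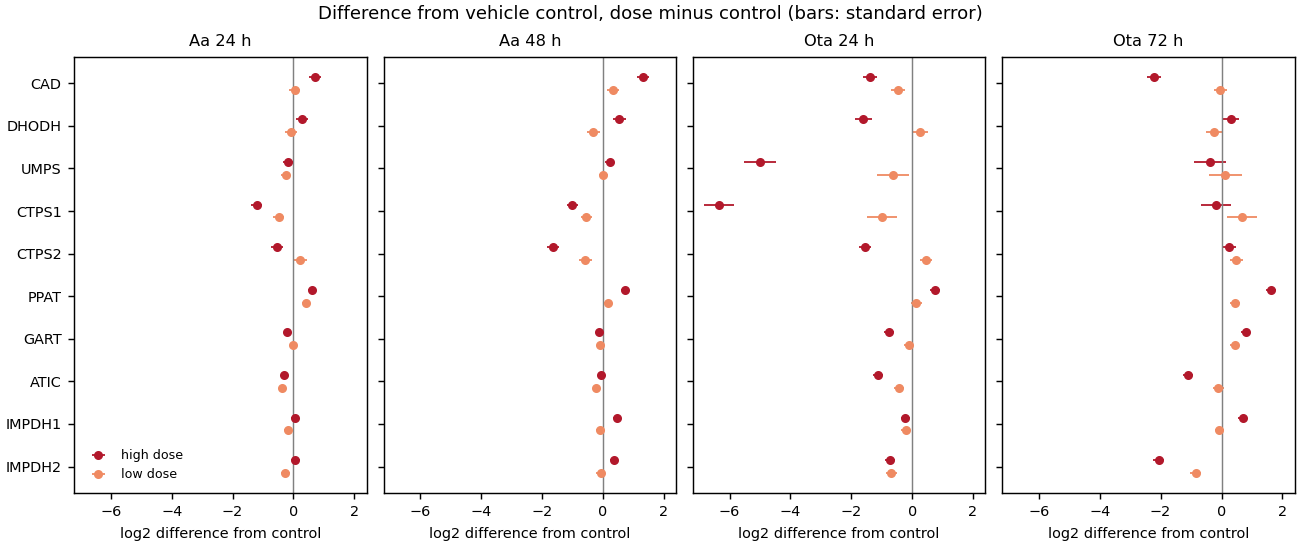
Difference of each member from its vehicle control (log2, dose minus control, x axis) for the 10 genes (y axis), in 1 panel for each compound and time; points are the high and the low dose and bars the standard error. CTPS1 and UMPS are far to the left with high Ota at 24 h alone, at -6.35 and -5.00, PPAT is to the right with the high dose in all 4 panels, from 0.60 to 1.63, and CAD lies to the right with high Aa and to the left with high Ota.

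PPAT, which commits precursors to purine synthesis, was the 1 member above its controls with the high dose of both compounds at every time. With high Aa it was 10.45, 10.76 and 10.71 at 24 h, against 9.89, 10.17 and 10.04 in controls, and it rose 1.52-fold (0.60 ± 0.13, adjusted p = 0.00094). At 48 h it was 10.69, 10.95 and 10.75, against 10.00, 10.20 and 9.99, and it rose 1.66-fold (0.73 ± 0.13, adjusted p = 0.00011). Low Aa at 24 h gave 10.30, 10.51 and 10.53, a rise of 0.41 ± 0.13 (adjusted p = 0.0256) that was lost without control replicate 1 (0.107) or 3 (0.0621), without low-dose replicate 2 (0.0668) or 3 (0.0908), and in a fit of all 36 arrays (0.0542). With low Aa at 48 h the difference was 0.16 ± 0.13 (adjusted p = 0.334).

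With high Ota PPAT was 11.01, 10.62 and 11.18 at 24 h, against 10.18, 10.34 and 10.01 in controls (0.76 ± 0.17, or 1.39 with shifted arrays). At 72 h it was 11.49, 11.46 and 10.95, against 9.86, 9.48 and 9.68 (1.63 ± 0.17), with no overlap at either time. The second PPAT probe set, 209434_s_at, differed in the same direction in those 4 high-dose comparisons, by 0.30 and 0.33 with Aa at 24 h and 48 h and by 0.53 and 1.31 with Ota at 24 h and 72 h. With high Ota at 24 h this second set overlapped its controls.

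PPAT starts beside PAICS, which carries later reactions of the same route, and the 2 genes are transcribed away from each other. The stretch between their starts is shown because it lies before both genes. It covers 136 bases at chr4:56435616-56435751 (GRCh38.p14, RefSeq), written on the minus strand, that of PPAT, with GC boxes in capitals.
PPAT to PAICS: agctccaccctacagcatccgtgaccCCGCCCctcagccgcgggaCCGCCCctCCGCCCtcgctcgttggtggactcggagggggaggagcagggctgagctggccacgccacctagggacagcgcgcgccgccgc
PAICS differed from control by 0.28 ± 0.11 with high Ota at 24 h and by 0.90 ± 0.11 at 72 h, and with high Aa it rose by 0.37 ± 0.08 at 48 h (adjusted p = 0.00059). With high Aa at 24 h, where PPAT rose, PAICS minus control was -0.13 ± 0.08 (adjusted p = 0.164).

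**Figure D3:**
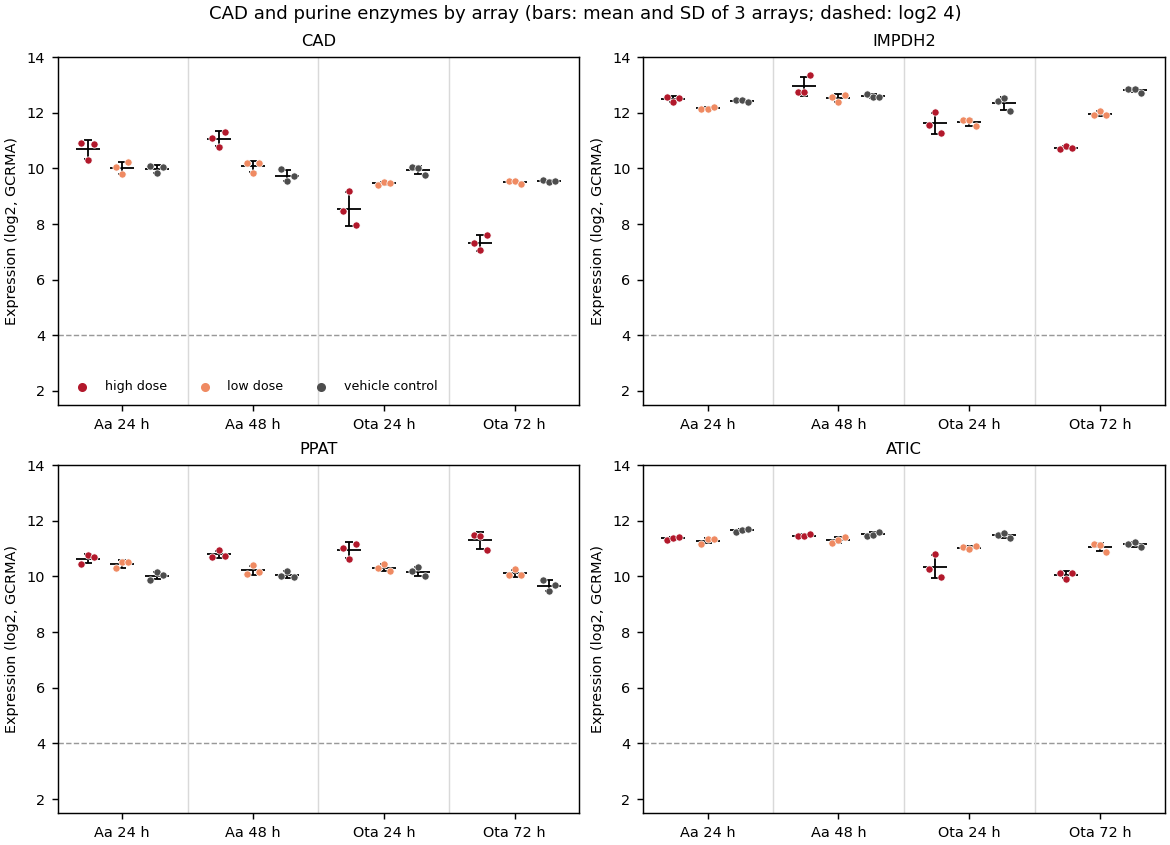
Levels of CAD, IMPDH2, PPAT and ATIC on each array (log2 values, y axis) in the 12 groups, set out by compound and time, with high dose, low dose and vehicle control from left to right; points are arrays and bars the mean and SD of 3 arrays. With high Ota at 72 h CAD averages 7.32, against 9.55 in controls, and IMPDH2 10.75, against 12.81, while PPAT is above its controls.

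IMPDH2, the form of IMP dehydrogenase that prevails in dividing cells, was lower than control with both doses of Ota at both times. At 72 h it was 10.69, 10.81 and 10.75 with the high dose, 11.92, 12.07 and 11.92 with the low dose, and 12.87, 12.85 and 12.72 in controls. The 3 groups were well apart, with -2.07 ± 0.17 for the high dose and -0.85 ± 0.17 for the low dose. At 24 h the high dose was 11.57, 12.01 and 11.28, the low dose 11.73, 11.74 and 11.51, and the controls 12.43, 12.52 and 12.07. Both doses lay under the controls, by 0.72 ± 0.17 and 0.68 ± 0.17, although the difference of the high dose was -0.08 with shifted arrays.

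With high Aa IMPDH2 was in the other direction at 48 h, at 12.75, 12.75 and 13.35, against 12.68, 12.55 and 12.55 in controls. The rise of 0.36 ± 0.14 (adjusted p = 0.0306) rested on replicate 3 of the high dose, without which it was 0.16 (0.195), and it was also lost without control replicate 2 (0.0769) or 3 (0.0761). At 24 h high Aa minus control was 0.06 ± 0.14 (adjusted p = 0.74), or -0.02 with shifted arrays.

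IMPDH1, the other IMP dehydrogenase, is measured at a lower level by its own probe set. With high Aa at 48 h it was 6.63, 6.40 and 6.84, against 6.11, 6.09 and 6.29 in controls, a 1.38-fold rise (0.46 ± 0.13, adjusted p = 0.00714). At 24 h it differed by 0.05 ± 0.13 (adjusted p = 0.768), or -0.03 with shifted arrays, and the difference between the times was 0.41 ± 0.19 (adjusted p = 0.138, with the block 0.0293). With high Ota it was 6.56, 6.53 and 6.19 at 72 h, against 5.73, 5.73 and 5.76 in controls, a difference of 0.69 ± 0.15. At 24 h the difference with high Ota was -0.23 ± 0.15, and it changed sign to 0.32 with quantile normalization and 0.41 with shifted arrays. IMPDH1 and IMPDH2 thus lay on opposite sides of their controls with high Ota at 72 h.

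ATIC was a little lower with Aa at 24 h and clearly lower with high Ota at both times. With Aa at 24 h it was 11.31, 11.38 and 11.42 at the high dose, 11.18, 11.35 and 11.34 at the low dose, and 11.61, 11.66 and 11.72 in controls. ATIC fell with both doses, by 0.30 ± 0.09 (adjusted p = 0.0118, and 0.0686 in a fit of all 36 arrays) and 0.38 ± 0.09 (0.00619). At 48 h the high dose differed by -0.06 ± 0.09 (adjusted p = 0.599), or 0.03 with quantile normalization, and the low dose by -0.22 ± 0.09 (0.064, with the block 0.00862). The difference in the high-dose effect between the times was 0.24 ± 0.13 (adjusted p = 0.189, with the block 0.0425). With high Ota ATIC was 10.28, 10.79 and 9.97 at 24 h, against 11.50, 11.55 and 11.37 in controls (-1.13 ± 0.17, or -0.49 with shifted arrays). At 72 h it was 10.14, 9.92 and 10.12, against 11.17, 11.25 and 11.06 (-1.10 ± 0.17).

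GART by its main probe set, 212378_at, stayed close to control with Aa. With high Aa it was 9.84, 9.98 and 9.88 at 24 h, against 10.11, 10.09 and 10.16 in controls (-0.22 ± 0.09, adjusted p = 0.0592, with the block 0.0158). At 48 h the difference was -0.13 ± 0.09 (adjusted p = 0.219). With high Ota the main set was on opposite sides of control at the 2 times, at 9.36, 8.91 and 9.14, against 9.92, 9.92 and 9.83 at 24 h (-0.76 ± 0.15, or -0.12 with shifted arrays), and at 10.31, 10.02 and 10.51, against 9.58, 9.47 and 9.39 at 72 h (0.80 ± 0.15). Its companion set 212379_at differed by -0.51 and 1.08 in the same Ota comparisons. A further GART set, 217445_s_at, differed there by -1.10 and 1.19. Unlike the main set it passed as lower with high Aa at 24 h (-0.57 ± 0.19, adjusted p = 0.0187 over 23649 probe sets, with the block 0.0006). At 48 h its difference with high Aa was -0.29 ± 0.19 (adjusted p = 0.189, with the block 0.0313).

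Another probe set annotated to GART, 230766_at, behaved differently from all of these and is described because of its values. With high Aa at 24 h it was 8.57, 7.98 and 7.77, with the low dose 7.41, 6.37 and 7.13, and in controls 4.58, 3.20 and 3.66. The groups were far apart, with 4.30 ± 0.34 for the high dose (adjusted p = 2e-07) and 3.16 ± 0.34 for the low dose (1.2e-05), although 2 of the control arrays lay under 4. At 48 h the high dose was 9.05, 8.71 and 8.92, the low dose 7.71, 7.08 and 7.10, and the controls 5.18, 5.34 and 4.62, a rise of 14.4-fold with the high dose (adjusted p = 2.3e-07) and 4.77-fold with the low dose (0.00016).

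With Ota the same set was 9.80, 9.11 and 9.51 with the high dose at 24 h, 7.52, 7.98 and 7.12 with the low dose, and 5.17, 4.62 and 5.41 in controls. At 72 h it was 9.92, 9.73 and 9.87 with the high dose, 7.54, 7.38 and 7.04 with the low dose, and 6.11, 6.18 and 6.36 in controls. In all 4 settings of compound and time the order was high dose above low dose above control, with no overlap. The annotation gives this set the symbol GART and no transcript accession, so which transcript it reads is not known from the sources used here. A dimmer set, 210005_at, passed as lower with high Aa at 48 h, at 3.81, 3.88 and 4.11, against 4.17, 5.26 and 5.49 in controls (adjusted p = 0.00505). As 2 of the high-dose arrays lay under 4, no size is given for that difference. The same set also passed as lower with high Aa at 24 h (adjusted p = 0.00819) and with low Aa at 48 h (0.00274). Its mean was 3.68 in each of those dose groups, under 4, so no size is given there either.

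**Figure D4:**
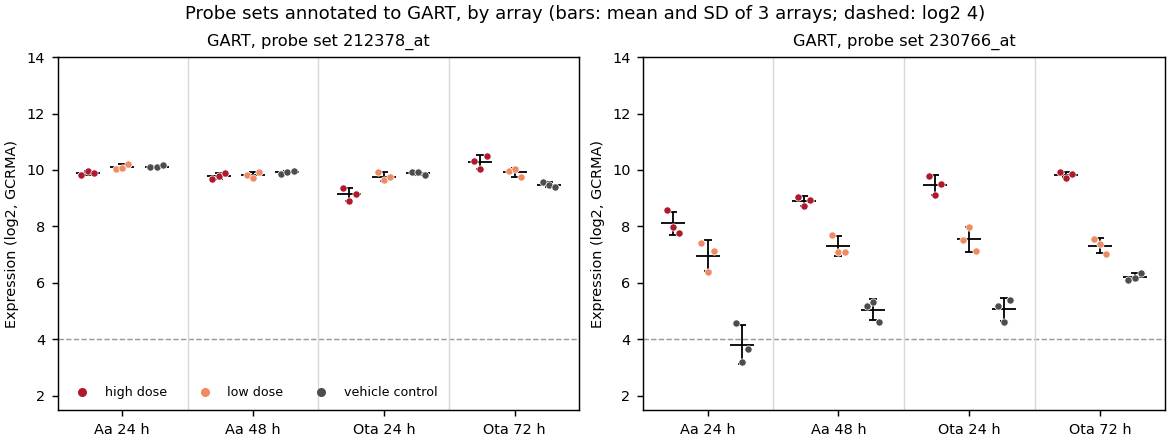
Levels on each array (log2 values, y axis) of the main GART probe set, 212378_at (left), and of 230766_at, annotated to the same gene (right), in the 12 groups, set out by compound and time, with high dose, low dose and vehicle control from left to right; points are arrays, bars the mean and SD of 3 arrays, and the dashed line is the level of 4. The right panel steps up with dose in every compound and time. The left panel does so by group mean with Ota at 72 h alone, at 9.48 in controls, 9.91 with the low dose and 10.28 with the high dose.

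Counted together, the members did not move as 1 set with Aa. With high Aa at 24 h, 2 of the 10 rose (CAD and PPAT) and 3 fell (CTPS1, CTPS2 and ATIC), beside 27.4% of all tested genes higher and 24.0% lower, and the median difference was -0.06 for the members and 0.03 for all genes. At 48 h 5 rose (CAD, DHODH, IMPDH1, IMPDH2 and PPAT) and 2 fell (CTPS1 and CTPS2), beside 30.9% higher and 35.1% lower, with medians of 0.29 and -0.04. With low Aa at 24 h 1 rose (PPAT) and 1 fell (ATIC), beside 11.6% higher and 13.5% lower, and at 48 h 0 rose and 2 fell (CTPS1 and CTPS2), beside 18.8% and 19.1%. The block made the low-dose counts 1 higher and 3 lower at each time. Shares of all genes with the block are not given, so nothing is read from any count with the block. The counts without the block are too near the background, at 10 genes, to read anything about the members from their number.

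Between the doses of Aa at 24 h 1 member was higher with the high dose (CAD, 0.66 ± 0.19, adjusted p = 0.0152) and 2 were lower (CTPS1 and CTPS2), beside 17.1% and 9.95% of genes. The CAD call was lost without high-dose replicate 1 (0.072) or 3 (0.0626), and those of CAD (0.0796) and CTPS2 (0.0566) without low-dose replicate 2. With the block 3 were higher and 3 lower, adding IMPDH2 (adjusted p = 0.0439), PPAT (0.0464) and GART (0.0395). At 48 h 5 were higher (CAD, DHODH, IMPDH1, IMPDH2 and PPAT) and 2 lower (CTPS1 and CTPS2), beside 20.9% and 25.6%, and ATIC was added by the block (0.16 ± 0.09, adjusted p = 0.0336). Of these, CTPS1 (-0.46 ± 0.18, adjusted p = 0.0486) was lost in 8 of 14 alternatives, without high-dose replicate 1 or 3 and low-dose replicate 2 or 3 among them (0.0661 to 0.217), and IMPDH2 without high-dose replicate 3 (0.0873) or low-dose replicate 2 (0.0744). In the Aa controls, 48 h minus 24 h, 0 of the 10 passed in limma, beside 0.565% of genes higher and 0.729% lower. An unadjusted limma p under 0.05 was seen for 3 members. No share of all genes at that looser threshold is given, so nothing is read from this count. With the block 2 were lower at 48 h, UMPS (-0.47 ± 0.15, adjusted p = 0.00527) and IMPDH1 (-0.45 ± 0.13, 0.00789). The block also took the test of the high-dose effect between the times to 4 members higher and 1 lower, adding UMPS (0.40 ± 0.22, adjusted p = 0.0244) to CAD, IMPDH1 and ATIC. The percentages in this paragraph are of the fit without the block, so they are no background for the counts with it.

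With Ota the counts only describe the choice of the set and nothing is read from them. With the high dose 1 member passed as higher and 8 as lower at 24 h, beside 21.6% and 42.4% of genes, with medians of -1.26 for the members and -0.26 for all genes. At 72 h the counts were 3 and 3, beside 26.3% and 37.0%, with medians of 0.04 and -0.12. With the low dose they were 0 and 1 at 24 h, beside 4.66% and 10.0%, and 0 and 1 at 72 h, beside 9.79% and 7.28%.

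Around these enzymes, other genes of nucleotide metabolism moved in both directions. The counts with high Aa in each group of genes stand beside 27.4% of all tested genes higher and 24.0% lower at 24 h, and 30.9% higher and 35.1% lower at 48 h, and with at most 11 genes in a group nothing particular to it is read from them. Of the 7 tested purine synthesis genes that are not members, 3 fell with high Aa at 24 h (median difference -0.29, against 0.03 over all tested genes) and 3 fell and 2 rose at 48 h (0.07, against -0.04). The ones that fell most were GMPS, which makes GMP after the IMPDH step (-0.80 ± 0.15 at 24 h, adjusted p = 0.00045, and -0.92 ± 0.15 at 48 h, 8.3e-05), and ADSL, which acts before and after IMP (-0.74 ± 0.15, adjusted p = 0.00074, and -0.96 ± 0.15, 4.6e-05). With high Ota, GMPS differed by -2.82 ± 0.26 at 24 h and ADSL by -2.02 ± 0.26 at 24 h and -2.19 ± 0.26 at 72 h. Ribonucleotide reductase subunit RRM2 fell with high Aa at both times, by 0.66 ± 0.11 and 0.64 ± 0.11 (adjusted p = 9.5e-05 and 7.3e-05). Of the 7 tested deoxynucleotide genes, 1 rose and 2 fell at 24 h (median 0.06) and 2 rose and 3 fell at 48 h (0.04). Both tested pyrimidine genes outside the set moved once with high Aa: the UMP and CMP kinase CMPK1 fell at 24 h (-0.48 ± 0.12, adjusted p = 0.00323), and the nucleoside diphosphate kinase NME1 rose at 48 h (0.51 ± 0.17, 0.0182).

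In salvage, 3 of 11 tested genes rose and 5 fell with high Aa at 24 h, and 4 rose and 5 fell at 48 h, with medians of -0.46 and -0.07. Adenosine kinase, ADK, had the largest fall of the nucleotide genes listed, with 8.21 ± 0.69 at 24 h, against 10.89 ± 0.13 in controls, and 6.37 ± 0.91 at 48 h, against 10.91 ± 0.21 (SD, n = 3 each; adjusted p = 0.00016 and 5.3e-07). Uridine phosphorylase UPP1 rose by 1.77 ± 0.18 at 48 h (adjusted p = 5.5e-07). With high Ota the uridine kinase UCK1 was under 4 on all 3 arrays at 24 h, with 3.00 ± 0.61, against 7.41 ± 0.30 in controls. Among 9 tested genes of nucleotide breakdown 5 rose and 2 fell with high Aa at 24 h and 4 rose and 1 fell at 48 h (medians 0.32 and 0.17), led by the dNTP hydrolase SAMHD1 (2.30 ± 0.22 at 48 h, adjusted p = 3.6e-07) and the AMP deaminase AMPD2 (1.87 ± 0.14, 3.4e-08). Xanthine dehydrogenase, XDH, averaged 7.07 ± 0.41 with high Ota at 72 h and was under 4 in controls.

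One-carbon and serine genes supply carbon for purines. Of 8 tested, 2 rose and 2 fell with high Aa at 24 h, and 2 rose and 5 fell at 48 h (medians -0.21 and -0.50), the mitochondrial enzymes SHMT2 and MTHFD2 being those that rose (0.63 ± 0.18, adjusted p = 0.00569, and 0.59 ± 0.12, 0.00042, at 48 h). With high Ota at 72 h the median difference of these 8 genes was -1.53, against -0.12 over all tested genes. Of the 2 tested nucleoside transporters, SLC29A3 rose and SLC29A1 fell with high Aa at both times, SLC29A1 by 0.86 ± 0.21 and 0.85 ± 0.21 (adjusted p = 0.0029 and 0.00208). SLC29A3 was near the background at 48 h, at 4.27 ± 0.27, against 3.74 ± 0.35 in controls (SD, n = 3 each). With values under 4 set to 4 its difference there was 0.25. Of 6 tested regulators of growth transcription, 2 rose and 2 fell with high Aa at 24 h (median 0.03) and 1 rose and 4 fell at 48 h (median -0.92). MYC, a transcription factor with targets among these enzymes, fell with both doses of Aa at both times, least with the low dose at 24 h (-0.55 ± 0.14, adjusted p = 0.00861) and most with the high dose at 48 h (-1.24 ± 0.14, 1.5e-06). With high Ota MYC differed by -0.54 ± 0.17 at 24 h and -0.76 ± 0.17 at 72 h. Proliferation markers with high Ota were lower than control by their median at 24 h. They were higher at 72 h, where CTPS1 overlapped its controls. The 72 h controls of these markers were themselves lower than the 24 h controls. Over the 5 markers the median difference with the high dose was -1.21 at 24 h, against -0.26 over all tested genes, and 0.77 at 72 h, against -0.12. At 24 h MKI67, named after its values were seen, averaged 7.92, against 11.25 in controls, CCNB1 averaged 8.34, against 11.99 in controls, and TOP2A 11.83, against 11.91. The summed level of the 5 proliferation markers ranged from 13.5 to 13.94 with high Ota at 24 h, against 14.66 to 14.92 in controls, on a log2 scale, and all 5 exceeded 4 on all arrays. At 72 h the sum was 13.96 to 14.15 with high Ota, against 13.11 to 13.46 in controls. It was thus above the 72 h controls and below the 24 h controls. Summed over the 11 proximal tubule markers the level was 9.99 to 10.65 with high Ota at 24 h, against 12.2 to 12.28 in controls, mostly through SLC4A4 (9.94, against 12.04), while GGT1, named after its values were seen, was 4.5, against 3.28. Of the 3 leukocyte markers with a probe set, PTPRC and CD3D were at or under 4 on all arrays, and the sum was 6.51 to 6.84, against 4.12 to 4.14 in controls, through FCER1G, named after its values were seen (6.47, against 2.44). The part of these markers in the loss of CTPS1 was not tested.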

How the data were processed

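Total RNA of 36 HK-2 cultures was measured on Affymetrix U133 Plus 2.0 arrays. The authors deposited log2 values per probe set made with GCRMA, per the submitters' processing notes, which give no version and do not say which arrays it took together. The number of arrays, 3 a group, limits the precision, and no scan dates were among the values used. The gene of a probe set came from the platform annotation, with 41091 of 54675 probe sets under 1 symbol, 1801 under several and 11721 under none. Here limma 3.58.1 in R 4.3.3 (lmFit and eBayes) fitted group means on the 18 arrays of each compound, with 12 residual degrees of freedom, over the genes above log2 4 on at least 3 arrays, with Benjamini-Hochberg adjustment over all of them. The code was tested on simulated data. In Aa, arrays with the same replicate number deviated together in all 45 pairs (correlations 0.19 to 0.60, against -0.45 to 0.11 for other numbers), so values with that number as a block are given where a call changes. In addition, every probe set was fitted on its own, a choice made after seeing the data. Alternatives were quantile normalization, shifted arrays, other filters, a floor at 4, 1 fit of all arrays, an intensity trend, the block, second probe sets and leaving out each array.

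The members, the lists of pathway and marker genes and the tests were chosen with earlier results of these data known. Named beyond the members are MYC, the 5 genes most correlated with CTPS1 and, from each pathway list, at most the 2 genes with the largest rise and fall in each high-dose comparison. The promoter windows are the 250 bases before each start in RefSeq's table (GRCh38.p14).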

Additional observations from a re-analysis of the deposited data

Results flagged for a closer look

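CTPS2 was singled out because its response to high Aa differed between the times: the difference from control at 48 h minus that at 24 h was -1.10 ± 0.28 (log2, limma interaction, adjusted p = 0.0146, all 3 high-dose arrays below all 3 controls at each time). With second probe sets the value was -1.10 ± 0.37 and did not pass (adjusted p = 0.0532). CAD lay on opposite sides of its controls with the 2 compounds at 24 h, at -1.39 with high Ota and 0.70 with high Aa, with every array apart from the controls. With shifted arrays these values were -0.76 and 0.62. The difference between the compounds was not tested, and the doses are not matched. GART lay on opposite sides at the 2 times of high Ota, at 0.80 at 72 h and -0.76 at 24 h. With shifted arrays these were 1.13 and -0.12, so its 24 h side rests on the overall level of the arrays. DHODH was at 0.30 at 72 h and -1.60 at 24 h by its main probe set, but its 24 h high-dose arrays were all under the level of 4. With values under 4 set to 4 the 24 h difference was -0.37, and the second set gave 0.29, so its direction at 24 h is not settled. These differences were not tested. Groups of 3 arrays are too small for a search for single arrays that stand out.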

How the results depend on the processing

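Of the results for single members with Aa under the alternatives, 1129 kept their direction and side of the threshold, 49 lost the call and 26 gained it. The number of members called with high Aa against control was 5 at 24 h (4 to 5 without 1 array) and 7 at 48 h (5 to 6), and between doses at 48 h 7 (5 to 7). With low Aa at 24 h it was 2, with 4 under the replicate block, 1 in a fit of all 36 arrays and 1 to 2 without 1 array. With low Aa at 48 h it was 2, with 4 under the replicate block, 1 with no filter, 1 in a fit of all 36 arrays and 0 to 2 without 1 array, the 0 being without low-dose replicate 1. Between the Aa doses at 24 h it was 3, with 6 under the replicate block, 1 with second probe sets and 1 to 3 without 1 array, the 1 being without low-dose replicate 2. With second probe sets CTPS2 lost its call in limma (adjusted p = 0.0504). CAD and UMPS were not tested in that setting, as the sets it used, 1564084_at and 239800_at, did not exceed 4 on at least 3 arrays. For the effect of high Aa between the times the number called was 1, with 5 under the replicate block and 0 with second probe sets, CTPS2 being the 1 lost, and in the Aa controls 0, with 2 under the replicate block. By the main probe sets the block changed no call of a member with Aa beyond the 16 given above. Shares of all genes under the block are not given, so the gains in members called are not read as a result. For Ota, same-numbered arrays correlated between -0.07 and 0.41, so the numbers are not taken as pairs; the replicate block, being balanced, left the members' Ota differences as they were, and it gave 2 members past the threshold in place of 1 with low Ota at 72 h and equal counts in the other 3 comparisons with control. With Ota 481 values stayed within the spread between replicates and 33 moved, 15 of them with shifted arrays. CTPS1 with high Ota at 24 h was -6.35, with -5.71 for shifted arrays and -7.27 to -5.88 without 1 array. Second probe sets reversed DHODH with high Ota at 24 h (0.29) and CTPS2 with low Ota at 24 h (-0.89). The causes of these changes were not tested. Values near the background limit what can be said of DHODH, and of CTPS1 and UMPS with high Ota at 24 h.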
